A study of Mus musculus with 6 samples.

Results

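The mouse major histocompatibility complex (MHC), known as H2, lies on chromosome 17 and holds Brd2, the gene that was edited in the cells studied here. CTCF peaks were taken from 3 peak lists over chromosome 17 from 33.8 to 38.2 Mb of mm9, a stretch of 4.4 Mb, and a peak was counted when its middle lay inside. The interval held 154 of the 29769 peaks of BRD2-null clone D, 176 of the 32308 peaks of BRD2-null clone C8 and 195 of the 40271 wild-type peaks. Overlapping peaks of the 3 lists were joined into regions, of which 227 of 48367 lay in the interval. Brd2 was placed near 34.25 to 34.26 Mb, as the choice of interval gives it. No mm9 annotation was used here, so its position could not be checked against one, and regions are named by position.

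The 3 lists came from chromatin immunoprecipitation and sequencing (ChIP-seq) with 1 antibody against CTCF in G1E-ER4, an established mouse erythroblast line. G1E-ER4 lacks its own GATA1, the master transcription factor of red cell development, and carries GATA1 fused to the estrogen receptor. All 3 cultures received 100 nM estradiol for 24 hours, which activates the fusion protein and starts differentiation. Clone D (D_Brd2KO) and clone C8 (C8_Brd2KO) are clonal sub-lines made with CRISPR/Cas9, in which no BRD2 was detected, and each is 1 clone. The wild-type cells are unedited G1E-ER4. There was 1 library of each, so no comparison carries a test or a p-value. Spread can be judged from the clones alone, and clonal origin and BRD2 loss cannot be told apart within a clone. The lists hold no read totals, so depth is unknown, and a peak that is absent from a list is a peak not called there.

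CTCF is a zinc finger protein that marks insulators and the borders of chromatin loops, where it stalls cohesin. BRD2 is a BET protein, which binds acetylated histones through its bromodomains. The MHC encodes the class I and class II molecules that show peptides to T cells. In mouse, class II genes and their helpers sit toward the centromeric end, followed by the gene-dense class III part. Most class I genes, but not all, lie beyond it in long runs of duplicates. In the RefSeq annotation of GRCm38.p6, Brd2 stands between H2-Oa and H2-DMa. H2-Oa encodes a chain of the H2-O protein, which restrains peptide loading of class II molecules. H2-DMa, with H2-DMb2 and H2-DMb1 beyond it, encodes the H2-DM protein that H2-O holds back. Next in order are Psmb9, Tap1, Psmb8 and Tap2, which encode immunoproteasome subunits and chains of the transporter that feeds peptides to class I molecules, then H2-Ob and the class II genes H2-Ab1 and H2-Aa.

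The promoter at the start of Brd2 is shown because Brd2 is the edited gene and, as given further on, none of the lists held a peak over its interval. It is the RefSeq promoter window with the most upstream start, at chr17:34122558-34122857 of GRCm38.p6, minus strand, and these coordinates cannot be set beside the mm9 positions of the peaks. The capitals mark the single match to CNAGGNGGC, a core of the CTCF motif, searched on both strands.

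Brd2 promoter: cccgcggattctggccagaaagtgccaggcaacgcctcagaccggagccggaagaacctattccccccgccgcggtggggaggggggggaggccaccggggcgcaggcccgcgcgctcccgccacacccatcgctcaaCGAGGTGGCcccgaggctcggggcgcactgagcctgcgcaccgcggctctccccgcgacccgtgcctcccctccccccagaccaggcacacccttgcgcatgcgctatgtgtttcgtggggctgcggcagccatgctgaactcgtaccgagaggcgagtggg

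The match starts at base 139, counted from the 5′ end of the window. Of the 3 Brd2 windows in the table, 1 held the motif, as did 2752 of all 32851 promoter windows of the same length (8.38%). H2-DMa starts on the opposite strand, and 276 bases of its window are the complement of the sequence above, with the same match. A match of these letters is a description of the sequence and not a measured site.

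Taken as a whole, the MHC interval held more CTCF peaks per Mb than either flank in all 3 lists. It held 35 peaks per Mb in clone D, 40 in clone C8 and 44.3 in wild type. The 4 Mb on its centromeric side (from 29.8 Mb) held 23.75, 24 and 27 peaks per Mb in clone D, clone C8 and wild type. The 4 Mb on its telomeric side (to 42.2 Mb) held 2.25, 2.75 and 6. The MHC was thus 1.47 times as dense as the centromeric flank in clone D, 1.67 times in clone C8 and 1.64 times in wild type. Against the telomeric flank the ratios were 15.6, 14.5 and 7.39. For scale, the autosomes were divided into 534 windows of 4.4 Mb, which held medians of 41.5 peaks in clone D, 45 in clone C8 and 57.5 in wild type. As many peaks as the MHC were held by 15, 13 and 13 of these windows.

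**Figure D1:**
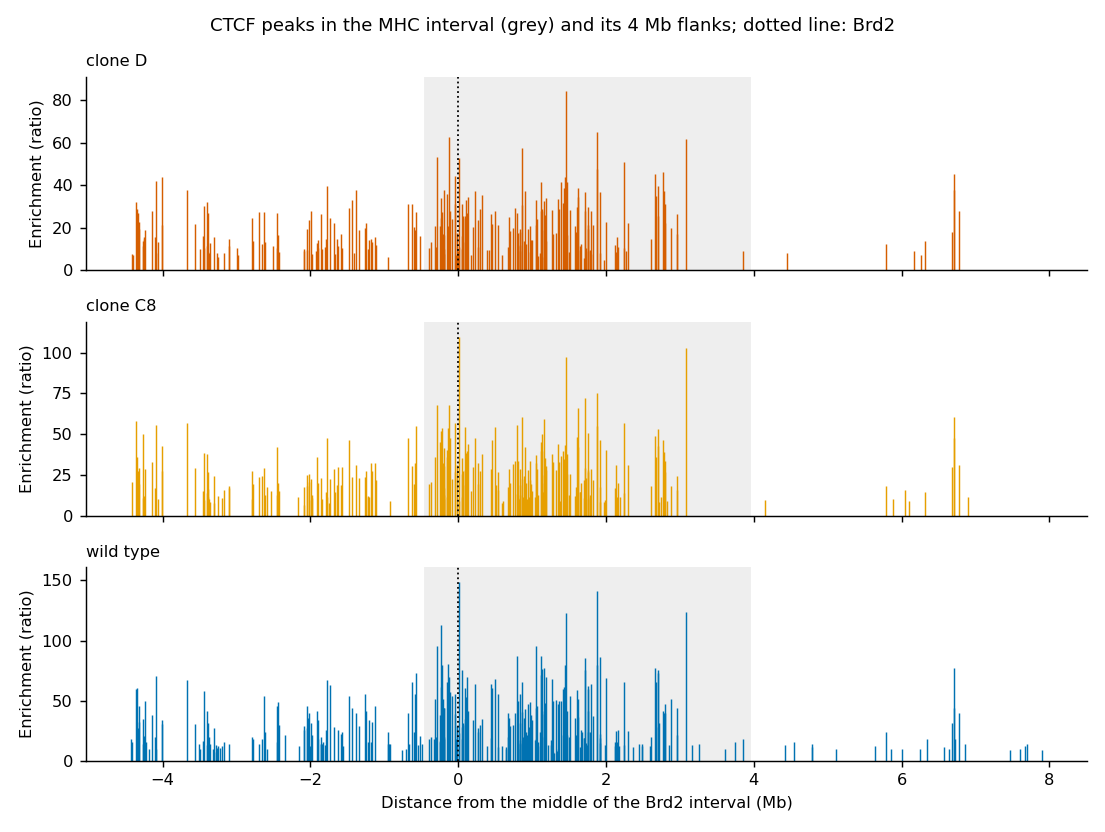
The authors' enrichment of each CTCF peak (vertical axis, a ratio with its own scale in each list) against distance from the middle of the Brd2 interval in Mb, for clone D, clone C8 and wild type from top to bottom. The grey MHC interval holds 154, 176 and 195 peaks, and the sparse stretch to its right, the telomeric flank, holds 9, 11 and 24.

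The density was uneven within the interval. The 2.2 Mb on the centromeric side held 118 of the clone D peaks, 135 of the clone C8 peaks and 145 of the wild-type peaks, and the 2.2 Mb on the telomeric side held 36, 41 and 50. Per Mb, the centromeric side held 53.6 peaks in clone D, 61.4 in clone C8 and 65.9 in wild type. The telomeric side held 16.4, 18.6 and 22.7, fewer than the centromeric flank in every list. In bins of 200 kb, the lists held a median of 5.5 peaks in clone D, 6.5 in clone C8 and 6.5 in wild type. The bin with the most regions (35000001 to 35200000) held 14 peaks in clone D, 20 in clone C8 and 21 in wild type. The next, from 34000001 to 34200000 on the centromeric side of Brd2, held 18, 22 and 22 peaks. The third, from 35200001 to 35400000, held 14, 17 and 18.

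The emptiest bins lay at the telomeric end. The bin from 37600001 to 37800000 held no peak in any list. That from 38000001 to 38200000 held 1 peak in clone D, 0 in clone C8 and 1 in wild type. The bins from 37400001 to 37600000 and from 37800001 to 38000000 held 2 peaks each, all in wild type. Beyond the last region called in all 3 lists, which ended at 37341138, the remaining 859 kb held 1 peak in clone D, 0 in clone C8 and 5 in wild type. In 4 of the 22 bins neither clone had a peak, and wild type had 8 peaks there, with enrichments of 10.12 to 15.86 against a wild-type median of 31.72 in the interval. That median was over 195 peaks, so the stretches without clone calls held a small and weak part of the wild-type list.

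**Figure D2:**
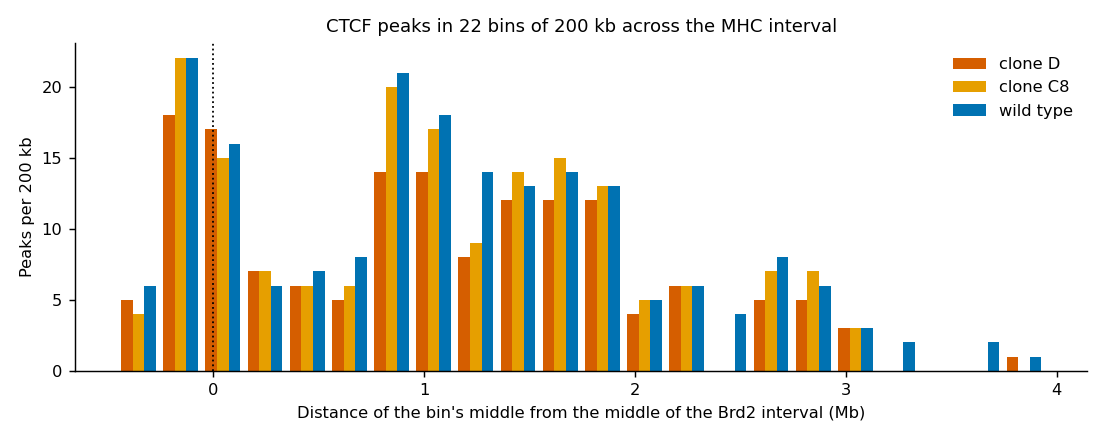
Number of CTCF peaks (vertical axis) in each of 22 bins of 200 kb, placed by the distance of the bin's middle from Brd2 in Mb. Bars of clone D, clone C8 and wild type stand side by side. Each list has its highest bar just left of Brd2, at 18, 22 and 22 peaks, and all are nearly empty at the right end.

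Peaks in the MHC were closely spaced. The median distance between the middles of neighbouring peaks was 13.1 kb in clone D, 10.3 kb in clone C8 and 10.7 kb in wild type. In the centromeric flank it was 22.1 kb in clone D, 18.5 kb in clone C8 and 19.5 kb in wild type. Over the autosomes it was 25.8, 24.7 and 24.3 kb. Gaps below 5 kb made up 27.5% of MHC gaps in clone D (42 of 153), 32.6% in clone C8 (57 of 175) and 32.0% in wild type (62 of 194), against 15.9%, 16.7% and 18.1% of autosomal gaps. The closest wild-type pair, with middles 0.448 kb apart, was at 34033619 to 34033921 and 34034005 to 34034430. Its enrichments were 12.8 and 79.4, so a weak peak stood beside a strong one. The next pairs, at 36962600 to 36963580 and 35411083 to 35412027, also joined a weaker and a stronger peak, with enrichments of 27.75 and 75.33 and of 19.82 and 77.32. Close pairs in the clones did not all have this form. A clone D pair at 34062680 to 34063854 had enrichments of 10.06 and 7.85, and the closest clone C8 pair, at 35438423 to 35439434, had 28.03 and 30.62. The peaks of that clone C8 pair nearly touched, as the first ended at 35438910 and the second started at 35438913. Clone D and wild type each had a single peak at that place, with enrichments of 33.95 and 69.65. Whether the clone C8 pair is a single site called in parts was not tested.

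Long gaps between neighbouring peaks inside the interval were few. These gaps leave out the stretch from the outermost peak to the interval's edge. Gaps above 100 kb numbered 4 in clone D, 4 in clone C8 and 5 in wild type. The longest such gap differed between the lists and, from middle to middle, was 772 kb in clone D (from 37340722 to 38112323), 308 kb in clone C8 (from 36555516 to 36863166) and 358 kb in wild type (from 37512802 to 37870769). Clone C8 had no peak in the last 859 kb of the interval, a stretch longer than any of these gaps, which is not counted because no clone C8 peak closes it there. Clone D shared the gap of 308 kb, as its second longest. Wild type had 4 peaks in the bin at 36600001 to 36800000, with enrichments of 11.38 to 14.29, which broke that gap up. A gap that opened near 36251418 recurred in each list, at 131.4 kb in clone D, 131.4 kb in clone C8 and 129.7 kb in wild type. Between regions called in all 3 lists, the longest gaps inside the interval were 307.7, 131.4 and 118.9 kb, and the 859 kb beyond the last such region held none.

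**Figure D3:**
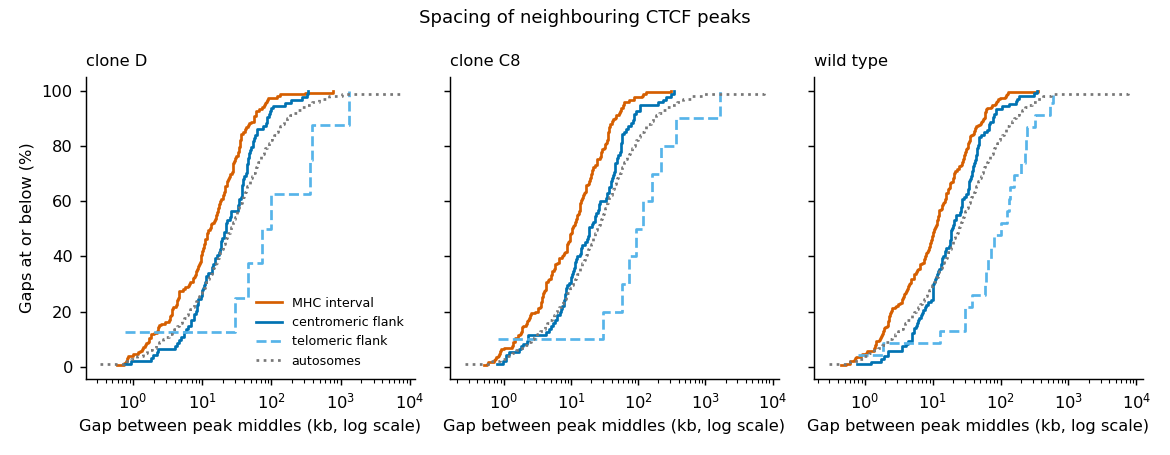
Cumulative share of gaps (vertical axis, percent) by the distance between the middles of neighbouring peaks (kb, log axis), in clone D, clone C8 and wild type from left to right. The MHC curve, with medians of 13.1, 10.3 and 10.7 kb, lies left of the centromeric flank and the autosomes, and the telomeric flank, with few gaps, lies to the right.

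MHC peaks ranked somewhat above the middle of their lists. The authors' enrichment of a peak is its own value and was compared only inside a list. In clone D the median was 21.3 in the MHC, 14.91 in the centromeric flank and 17.35 in the whole list. In clone C8 the medians were 27.1, 20.12 and 21.53, and in wild type they were 31.72, 21.87 and 22.68. The telomeric flank had medians of 14.0 in clone D (9 peaks), 15.5 in clone C8 (11 peaks) and 12.89 in wild type (24 peaks). The median MHC peak thus stood at percentile 61.1 of the clone D list, 62.0 of the clone C8 list and 63.7 of the wild-type list. Above percentile 90 were 12.3% of MHC peaks in clone D, 12.5% in clone C8 and 20.0% in wild type. At or below percentile 10 were 7.14% in clone D, 10.2% in clone C8 and 6.67% in wild type, against 10.1, 8.61 and 9.96% of the whole lists. Among 320 autosomal windows of 4.4 Mb with at least 50 wild-type peaks, 22 had a wild-type median at or above that of the MHC. Peaks had a median width of 508 bp in clone D, 431.5 bp in clone C8 and 422 bp in wild type, against 489, 417 and 402 bp in the whole lists.

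The 5 strongest wild-type peaks of the MHC that were in all 3 lists began with the peak beside Brd2 (34272047 to 34272569). It had an enrichment of 52.6 in clone D (rank 646 of the list), 109.82 in clone C8 (rank 36) and 148.86 in wild type (rank 55). The region at 36133754 to 36134355 ranked 165 in clone D, 343 in clone C8 and 70 in wild type. The region at 37340344 to 37341138 ranked 241, 60 and 136 in the same order. That region is the last one called in all 3 lists before the sparse telomeric end. The region at 35714964 to 35715730 ranked 28 in clone D, 75 in clone C8 and 141 in wild type. The region at 34027562 to 34028260 ranked 4239 in clone D, 2538 in clone C8 and 207 in wild type, so it stood lower in the clone lists than the other 4.

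Most MHC peaks were called in more than 1 library. Clone D overlapped 145 of the 195 wild-type MHC peaks by at least 1 bp (74.4%, exact 95% binomial interval 67.6 to 80.3), against 63.1% of the whole wild-type list. Clone C8 overlapped 147 (75.4%, 68.7 to 81.3), against 65.3%, and the mean of the clones was 74.9% ± 0.725 (SD, n = 2). Both clones overlapped 137 (70.3%, 63.3 to 76.6), against 59.8%. These intervals cover counting error only. MHC peaks are stronger than average, and strong peaks are shared more often. The overlap of autosomal peaks of equal enrichment, taken in 50 bins, gave 73.4% for clone D, 75.4% for clone C8 and 70.6% for both. The share in both clones therefore differed from that expected by −0.315 percentage points, and by 0.326 points with bins of −log10 p. Of the 320 autosomal windows, 203 had a difference at or above that of the MHC.

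With the clone lists as the starting point, wild type overlapped 143 of the 154 clone D peaks in the MHC (92.9%, 87.6 to 96.4), against 85.1% of that whole list and 88.6% at equal enrichment. Clone C8 overlapped 140 of them (90.9%, 85.2 to 94.9), against 87.9% of the list and 90.7% at equal enrichment. Both others overlapped 136 (88.3%), against 80.6% of the list and 85.2% at equal enrichment. Of the 176 clone C8 peaks, wild type overlapped 147 (83.5%, 77.2 to 88.7), against 81.4% of the list and 84.4% at equal enrichment. Clone D overlapped 142 of them (80.7%, 74.1 to 86.2), against 81.3% of the list and 83.9% at equal enrichment. Both others overlapped 138 (78.4%), against 74.5% of the list and 78.8% at equal enrichment. In the centromeric flank, both clones overlapped 74 of 108 wild-type peaks (68.5%, 58.9 to 77.1), a share close to that of the MHC. The share at equal enrichment was 57.7%. With bins of −log10 p it was 62.1%, which lies inside that interval. In the telomeric flank both clones overlapped 5 of 24 (20.8%, 7.13 to 42.2), against 28.8% at equal enrichment and 30.8% with bins of −log10 p.

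Sharing followed strength. In the upper 25% of the wild-type list, clone D overlapped 75 of 76 MHC peaks and clone C8 overlapped 76 of 76, where the whole list gave 99.6% for clone D and 99.7% for clone C8. In the lowest 25%, each clone overlapped 8 of 31 (25.8%, 11.9 to 44.6), where the whole list gave 12.9% for clone D and 14.8% for clone C8. The strong wild-type peak without a clone D call lay at 34051755 to 34052095. It had an enrichment of 32.3 in clone C8 (percentile 71.5) and 51.54 in wild type (percentile 84.0), and no peak in clone D. A weaker region close by, at 34049936 to 34050158, was also called in clone C8 (12.92) and wild type (17.84) and not in clone D.

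Of the 227 MHC regions, 135 were called in all 3 lists (59.5%, 52.8 to 65.9), against 49.5% of all regions. Wild type held 40 alone (17.6%, 12.9 to 23.2), against 26.2%. Clone C8 held 25 alone (11%, 7.26 to 15.8), against 7.94%, and clone D held 7 alone (3.08%), against 4.7%. Clone C8 and wild type shared 9 without clone D (3.96%), against 4.54%, and clone D and wild type shared 7 without clone C8 (3.08%), against 2.7%. Both clones shared 4 that wild type lacked (1.76%, 0.482 to 4.45), against 4.48%. Regions of wild type alone thus outnumbered those of both clones without wild type, but these counts are unlike. The first needs a call in a single list, and the second needs calls in both clone lists. With clone D left out, 48 regions were in wild type only and 29 in clone C8 only. With clone C8 left out, 50 were in wild type only and 11 in clone D only. The wild-type list was also the longest, and the order of the counts depended on its weak peaks. Among peaks with a −log10 p of 10 or more, 7 regions were in wild type alone and 6 in both clones without wild type. Among peaks with a false discovery rate of 0.05 or less, a threshold chosen after seeing the data, the counts were 2 and 18, so the order was turned round. That threshold kept 99.4% of clone D peaks in the MHC, 86.9% of clone C8 peaks and 63.1% of wild-type peaks.

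The regions that wild type held alone were weak. Their median enrichment was 13.88, against 43.61 for wild-type peaks of regions in all 3 lists, and the authors' −log10 p was below 10 for 37 of the 40, where the lowest value of any list is 5. The strongest, at 35931274 to 35931527, had an enrichment of 23.79 (percentile 52.1), and the next, at 35678825 to 35679354, had 21.81. The others of the top 5, at 34927864 to 34928101, 35132072 to 35132438 and 36173631 to 36174124, had 19.82, 19.82 and 19.19. The nearest of these 5 was 668 kb from Brd2, and a slightly weaker region of wild type alone, outside the top 5, lay at 44.4 kb (enrichment 17.84).

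The 4 regions of both clones without a wild-type call ranked low in clone D. The highest ranked, at 34309424 to 34309890, was 49.4 kb from Brd2 and had an enrichment of 9.94 in clone D (percentile 19.7) and 25.29 in clone C8 (percentile 58.4). That at 34422753 to 34423304 had 7.48 in clone D and 15.41 in clone C8. Those at 35410588 to 35410979 and 36227666 to 36228219 had 6.54 and 5.02 in clone D and 14.66 and 8.36 in clone C8. In clone D all 4 were in the lowest 25% of the list, and in clone C8 the first was above the middle. The strongest MHC peak called in clone D alone lay at 35437412 to 35437833 (13.92), and that called in clone C8 alone at 34760132 to 34760463 (18.98). Regions missing from 1 clone, besides the pair at 34049936 and 34051755, included 35961347 to 35961905 (21.96 in clone C8 and 18.89 in wild type) and 33959368 to 33959740 (11.19 in clone D and 19.82 in wild type). The class I part of the MHC holds near-identical gene copies. The sources used here do not say how reads that match several copies were treated, and their part in these calls was not tested.

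No list had a peak over the Brd2 interval itself. Clone D had 16 peaks within 100 kb of it, clone C8 14 and wild type 15, in a stretch of 210 kb. That is 76.2, 66.7 and 71.4 peaks per Mb. Other windows of 210 kb in the MHC held a median of 6 peaks in clone D, 6.5 in clone C8 and 8 in wild type. As many peaks as around Brd2 were found in 1, 4 and 4 of those 18 windows. In the 19 windows of the centromeric flank the highest counts were 12 in clone D, 11 in clone C8 and 14 in wild type, and in the 19 of the telomeric flank 4, 4 and 6. Each flank window therefore held fewer peaks than the stretch around Brd2. Together the 3 lists formed 18 regions there, of which 12 were called in all 3. Of MHC regions 59.5% were so called, and of all regions 49.5%. Both other lists held 12 of 16 clone D peaks (75%, 47.6 to 92.7), against 80.6% of that whole list. They held 12 of 14 clone C8 peaks (85.7%, 57.2 to 98.2), against 74.5%, and 12 of 15 wild-type peaks (80.0%, 51.9 to 95.7), against 59.8%. With so few peaks, all 3 intervals include the share of their whole list. The shares around Brd2 were not matched for enrichment. The median peak there stood at percentile 68.8 of the clone D list, 62.9 of clone C8 and 67.5 of wild type.

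**Figure D4:**
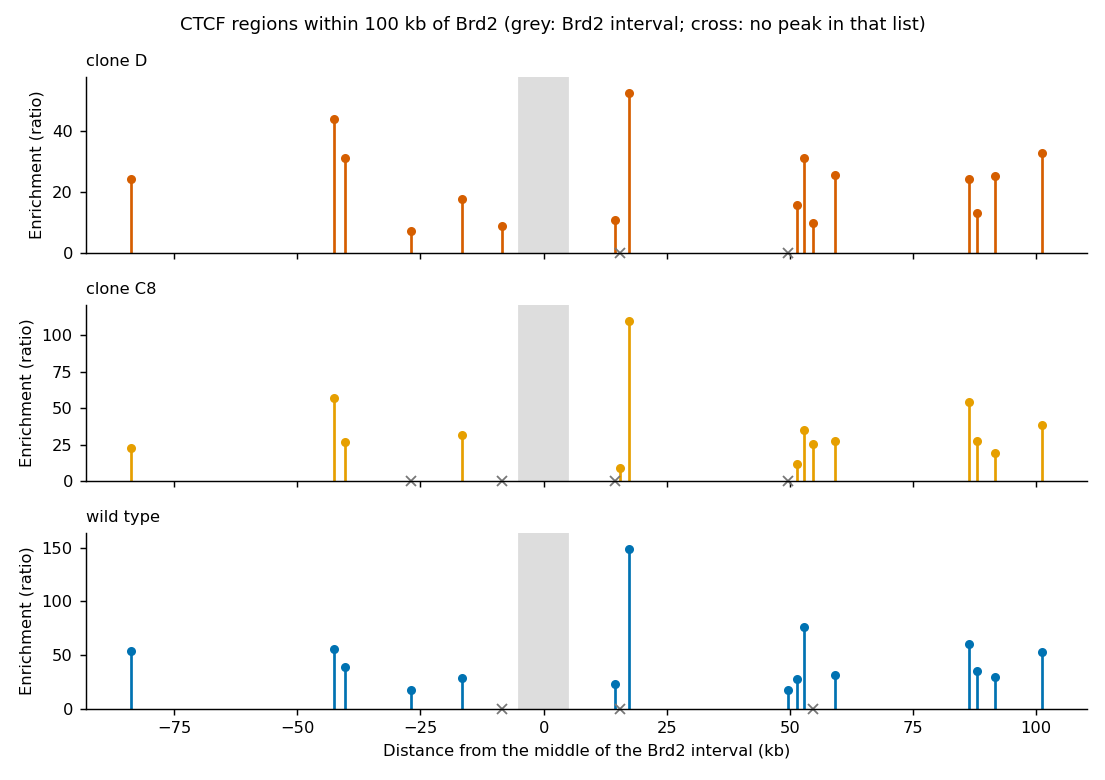
Enrichment (vertical axis, a ratio with its own scale in each list) of the 18 CTCF regions within 100 kb of Brd2, by distance from the middle of the Brd2 interval in kb, in clone D, clone C8 and wild type from top to bottom. Crosses mark regions with no peak in that list. No peak falls in the grey Brd2 interval, and the tallest stem in each list is the region 12.0 kb from it.

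On the telomeric side, 12.0 kb from the Brd2 interval, stood the strongest peak of the stretch in every list (34272047 to 34272569), given above. It had a −log10 p of 136 in clone D, 152 in clone C8 and 140 in wild type. It stood at percentile 97.8 of the clone D list, 99.9 of clone C8 and 99.9 of wild type. Between it and Brd2 lay weaker calls. A region at 34269215 to 34269671, 9.21 kb from Brd2, was called in clone D (10.9) and wild type (23.06) and not in clone C8. Clone C8 had a call of its own at 34270269 to 34270577 (8.97), which did not overlap it.

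On the centromeric side, the nearest region called in all lists was 11.2 kb away, at 34238234 to 34238830. It had an enrichment of 17.75 in clone D, 31.34 in clone C8 and 28.85 in wild type. Its percentiles were 50.8, 70.3 and 60.0, each within the library's own list, and the lists differ in length. Ranked among the 23933 regions called in all lists, it stood at percentile 39.8 in clone D, 60.1 in clone C8 and 34.3 in wild type. Closer to Brd2, at 3.23 kb, clone D alone had a weak call (34246340 to 34246771) at percentile 12.3 of its list (enrichment 8.97, −log10 p 5.78). The distance between the peaks on either side of Brd2 was 22.9 kb in clone D, 31.8 kb in clone C8 and 30.9 kb in wild type. The clone D value is shorter because of that weak call.

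Farther out on the centromeric side, 2 regions stood 35.0 and 37.2 kb from Brd2. That at 34214325 to 34214962 had 31.35 in clone D, 26.79 in clone C8 and 39.03 in wild type. That at 34212043 to 34212755 had 44.26 in clone D, 56.85 in clone C8 and 55.51 in wild type. The second was at percentile 94.5 of the clone D list, 94.8 of clone C8 and 86.8 of wild type, high in each. A weak region at 34227819 to 34228264 was called in clone D (7.36) and wild type (17.86) only. The farthest, at 34170946 to 34171499, had 24.29 in clone D, 22.47 in clone C8 and 53.53 in wild type.

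On the telomeric side, the regions beyond 40 kb formed close groups. A region at 34306234 to 34306649 had 15.98 in clone D, 11.63 in clone C8 and 27.75 in wild type. Beside it, the region at 34307495 to 34308178 had 31.37 in clone D, 35.18 in clone C8 and 75.9 in wild type. Wild type alone had a call at 34304425 to 34304730 (17.84). The clones alone had the call at 34309424 to 34309890 described above. The group ended with 34313959 to 34314568, which had 25.54 in clone D, 27.13 in clone C8 and 31.72 in wild type.

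Beyond 80 kb stood 4 more regions, each called in all 3 lists. The region at 34341044 to 34341638 had 24.49 in clone D, 54.26 in clone C8 and 60.72 in wild type. The region at 34342836 to 34343306 had 13.17, 27.72 and 34.7 in the same order. In both, the clone D percentile (69 and 34.5) was below those of clone C8 (93.6 and 63.5) and wild type (89.7 and 67.5). The region at 34346537 to 34346992 had 25.48 in clone D, 18.91 in clone C8 and 29.74 in wild type, and there clone C8 had the lowest percentile (43.1, against 71.0 in clone D and 61.2 in wild type). The region at 34355860 to 34356534 had 32.99 in clone D, 38.44 in clone C8 and 53.13 in wild type, at percentiles of 84.4, 80.1 and 85.0. All these percentiles are within each library's own list, and the lists differ in length. Ranked among the regions called in all 3 lists, this last region stood at 80.6 in clone D, 73.2 in clone C8 and 74.9 in wild type. The region at 34342836 to 34343306 then stood at 22.2, 51.2 and 46.0 in the same order.

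To compare strength between libraries, the 23933 regions called in all 3 lists were ranked by enrichment within each library, so that the same sites were ranked each time. The 135 MHC sites had a median percentile of 61.5 in clone D, 59.8 in clone C8 and 61.9 in wild type. The median difference from wild type was −3.23 percentile points for clone D and −2.76 for clone C8, against 0.299 and 0.0689 over all common sites. The quartiles were −18.9 and 10.1 points for clone D and −13.3 and 8.37 for clone C8, so the sites spread in both directions by more than the median moved. The 2 differences share the wild-type library. Between the clones, the median difference of clone C8 from clone D was −0.157 points, with quartiles of −11.6 and 11.8.

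By this measure, 53 of the 135 MHC sites stood at least 10 points lower in clone D than in wild type (39.3%), against 30.4% of all common sites, and 35 at least 10 points higher (25.9%), against 30.6%. In clone C8, 44 were lower (32.6%), against 29.7%, and 27 were higher (20.0%), against 30.1%. When ranked by −log10 p, the median differences were −0.196 points for clone D and −2.2 for clone C8, so the clone D median was closer to 0. At least 10 points lower were then 38 sites in clone D (28.1%), against 27.5% of all common sites, and 42 in clone C8 (31.1%), against 27.0%. At least 10 points higher were 31 sites in clone D (23.0%), against 28.1%, and 25 in clone C8 (18.5%), against 26.9%. Neither these shares nor the median differences were matched for rank in wild type. By enrichment, the MHC sites had a median percentile of 61.9 there, against 50.0 for all common sites. Sites that rank higher have more room to fall than to rise.

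**Figure D5:**
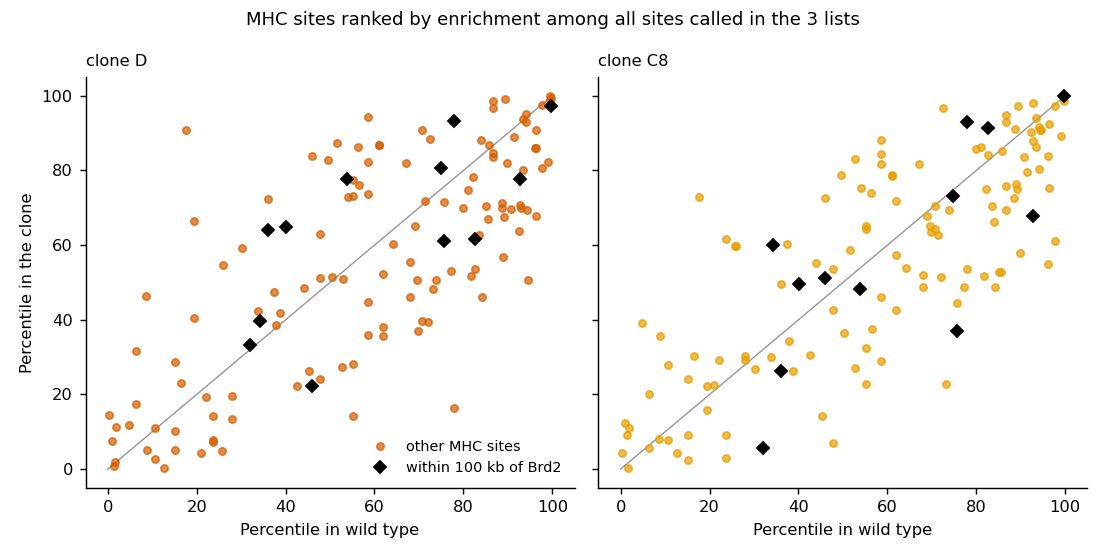
Percentile of each of the 135 common MHC sites among all 23933 common sites, in the clone (vertical axis) against wild type (horizontal axis), for clone D on the left and clone C8 on the right. Points on the grey line have equal percentiles. Sites scatter on both sides of the line, with medians of −3.23 and −2.76 points, and the 12 sites within 100 kb of Brd2 (black) do so too.

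The 12 common sites within 100 kb of Brd2 differed from wild type in both directions. In clone D, the differences from wild type ran from −23.8 points (34342836 to 34343306) to 27.8 points (34346537 to 34346992). In clone C8 they ran from −38.6 points (34170946 to 34171499) to 25.8 points (34238234 to 34238830). At the strong site 12.0 kb from Brd2 the difference was −2.47 points for clone D and 0.0773 for clone C8. The sites with the lowest and the highest difference in clone D, starting at 34342836 and 34346537, were neighbours less than 5 kb apart.

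The sites with the largest differences lay elsewhere in the MHC and were picked by their differences. The most positive difference in each clone was at 35727630 to 35728179, at percentile 90.9 in clone D, 72.8 in clone C8 and 17.5 in wild type. Its enrichment was 41.41 in clone D, 37.97 in clone C8 and 21.18 in wild type. The most negative difference in clone D was at 35084526 to 35085027, at percentile 16.5 in clone D, 53.7 in clone C8 and 77.9 in wild type. The most negative difference in clone C8 was at 37133874 to 37134361, at percentile 48.4 in clone D, 22.9 in clone C8 and 73.2 in wild type. The site at 34118570 to 34119532 was at percentile 50.6 in clone D, 90.8 in clone C8 and 94.6 in wild type, so the clones stood 40.2 points apart there, about as far as clone D from wild type.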

How the data were processed

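CTCF ChIP-seq was measured in 3 libraries, 1 each of clone D, clone C8 and wild-type G1E-ER4 cells, and the 3 inputs were left out. The submitters' processing notes name build mm9, bcl2fastq 1.8.4 and Bowtie 1.0.0. The peak caller and its settings were not stated in any source used here. For each library the authors deposited its own list. Each deposited line has a fold enrichment (a ratio whose denominator is not stated), a −log10 p and a false discovery rate as a fraction. Depth per library is unknown.

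Peaks were placed by their middles and positions are counted from 1. Lists were compared by overlaps of at least 1 bp, and shares carry Clopper-Pearson 95% intervals. Calculations used Python 3.11.15, pandas 2.3.3, numpy 2.4.6 and SciPy 1.17.1, and figures matplotlib 3.10.9. On simulated data, 7000 of 7000 regions were put in the right class, and bedtools 2.31.1 gave equal overlap counts in 6 of 6 checks. A loss of 15 points planted among the wild-type MHC peaks was recovered as −14.4, the mean of 20 draws. In the draws, overlap rose evenly with strength between set limits, unlike in the real lists. The draws therefore check the calculation and not whether a single comparison would show such a loss.

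The interval, the lists of regions and the comparisons were chosen with earlier results of these data known. Named regions are all within 100 kb of Brd2, the 5 strongest per class, the extreme gaps, pairs and bins, and, added after values were seen, the sites with the largest rank differences. Alternatives were other overlap rules, thresholds, list lengths, flanks and distances, ranking by −log10 p, and each clone left out.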

Additional observations from a re-analysis of the deposited data

How the results depend on the processing

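Of 77 values under an alternative, 36 stayed within the spread between the clones (0.725 percentage points) for shares or a factor of 1.5 for counts, densities and spacing. That spread is the SD of 2 shares taken against the same wild-type list. It served as a working limit and does not measure the error of a share. Rank differences fall under neither limit, and those of clone D and clone C8 by −log10 p were both counted as moved. Shares of wild-type MHC peaks in clone D, in clone C8 and in both were 70.8, 71.8 and 64.6% with a reciprocal overlap of 50% and 76.4, 77.9 and 72.8% with peaks extended by 500 bp. They were 84.0, 84.7 and 80.4% with each list cut to 29769 peaks, 92.9, 93.7 and 92.1% with only peaks whose −log10 p reached 10, and 95.9, 97.6 and 95.1% with a false discovery rate up to 0.05, which was chosen after seeing the data. By construction these thresholds remove weak peaks. Regions in wild type only were then 19, 7 and 2, and regions in both clones that wild type lacked were 7 at equal length and 18 at the false discovery rate. Wild-type MHC peaks were 126 at the −log10 p and 123 at the rate. With each clone left out, the share ran from 74.4 to 75.4% and regions absent from wild type from 11 to 29, as a single clone then decides the count. Peaks within 50 kb of Brd2 were 10, 8 and 9 in clone D, clone C8 and wild type, and within 200 kb 31, 33 and 31. Peaks per Mb in clone D and clone C8 were 53.6 and 61.4 on the centromeric side of the interval, and in clone D, clone C8 and wild type 16.4, 18.6 and 22.7 on its telomeric side. The median spacing in clone C8 was 15.95 kb for a −log10 p from 10 up. Ranked by −log10 p, the median rank differences were −0.196 points for clone D and −2.2 for clone C8; the cause was not tested. The difference of the share in both clones from that expected turned its sign, from −0.315 to 0.326 points, with bins of −log10 p. Counting error alone gives that share an interval of 63.3 to 76.6%, so the sign cannot be read. No paired analysis was possible because no result comes from a test. Depth is unknown, which limits what the absence of a weak peak can show.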
